A study of Mus musculus with 18 samples.

Results

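Egfl7, Hspa12b, Meox2, Sox4, Sox7, Sox17, Sox18, Tie1, Tek, and Cdh5 are 10 of the 34989 genes that could be summed from the transcripts quantified in 18 libraries of mouse heart. They were picked by name as genes of endothelial identity that fall with cold storage, so that the difference between stored and unstored hearts is given here as a description, and calls in that contrast support nothing about these genes. The level of each gene was the sum of the estimated counts of all its transcripts in a library. The description did not hold for all of them. Meox2 and Sox4 were lower in every stored library of both ventricles. Egfl7 and Hspa12b were lower in every stored library of the right ventricle (RV) and of the left ventricle (LV) at 4 h. They overlapped with 0 h in LV at 8 h, and Tek was slightly lower in RV. Cdh5, Tie1, Sox7, Sox17, and Sox18 were not lower throughout, and Sox7 was higher in RV. How many of all genes had stored libraries wholly apart from those at 0 h was not counted, so nothing is read from such separation.

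Hearts of C57B/L6 mice (the strain as the labels spell it) aged 12 weeks were flushed with HTK, a cardioplegic preservation solution, kept cold in it for 0, 4, or 8 h, and then perfused with Krebs buffer for 1 h outside the body. RNA was taken from the left ventricle (LV) and the RV, with 3 libraries for each ventricle and storage time. Every group, including 0 h, had been flushed and perfused, so that the 0 h hearts were not fresh hearts, and the perfused hearts had no circulating blood or other organs. The labels do not say that the numbered libraries are separate animals, and p-values measure the spread between these libraries.

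The libraries held between 22552581 and 46236771 estimated counts. Levels are given as CPM, the estimated counts of a gene divided by the library size and scaled to a common total, with the library size adjusted by the trimmed mean of M values (TMM). Hspa12b had the lowest count of the 10 genes in any library, at 80 estimated counts, and Cdh5 never had fewer than 3756. Endothelial RNA was clearly present, since all 34 other endothelial genes examined passed the filter on low counts in both ventricles and their summed level was between 1686 and 3572 CPM in every library. In whole ventricle, fewer endothelial cells and less RNA of a gene per endothelial cell cannot be told apart. The labels give no sex. The Y-linked gene Ddx3y was between 1.47 and 2.44 CPM in number 2 at 0 h and in number 3 at 4 and 8 h, in both ventricles, and between 62.1 and 115 CPM in the other 12 libraries.

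Endothelial cells line the vessels of the heart and hold their barrier through adherens junctions, which are built around VE-cadherin, the product of Cdh5. Angiopoietins signal through the receptor tyrosine kinase Tek (Tie2), and Tie1 is its partner receptor without a well-defined ligand of its own. The SoxF factors Sox7, Sox17, and Sox18 act in vessel development and arterial specification, Meox2 is a homeobox factor of cardiac capillary endothelium, and Sox4 is a SoxC factor that many cell types express. Egfl7 encodes a protein secreted by endothelial cells into the matrix and carries a microRNA in an intron, and Hspa12b encodes a distant member of the HSP70 family found mostly in endothelium.

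The promoters of the genes that were lower are shown because these genes were all lower after storage in RV. RefSeq start sites were matched for 6 of the 10 genes, and no entry was matched for Cdh5, Sox7, Sox17, and Sox18. The sequences below are the bases before a start site on GRCm38.p6 that are not in an annotated exon, 5′ to 3′ on the strand of the gene, in lower case with motif matches in capitals. They lie at chr2:26583615-26583863 (+) for the Egfl7 start nearest to its main transcript, chr2:131127162-131127279 (+) for Hspa12b, chr12:37108290-37108539 (+) for Meox2, chr13:28953714-28953949 (-) for Sox4, and chr4:94739039-94739288 (+) for Tek.
Egfl7: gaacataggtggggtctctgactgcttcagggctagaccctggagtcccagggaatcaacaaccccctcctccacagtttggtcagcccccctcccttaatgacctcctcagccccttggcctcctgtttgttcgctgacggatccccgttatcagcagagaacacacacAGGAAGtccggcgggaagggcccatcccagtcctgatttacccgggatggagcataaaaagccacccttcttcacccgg
Hspa12b: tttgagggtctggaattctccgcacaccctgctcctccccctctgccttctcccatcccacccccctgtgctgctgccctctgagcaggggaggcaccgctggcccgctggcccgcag
Meox2: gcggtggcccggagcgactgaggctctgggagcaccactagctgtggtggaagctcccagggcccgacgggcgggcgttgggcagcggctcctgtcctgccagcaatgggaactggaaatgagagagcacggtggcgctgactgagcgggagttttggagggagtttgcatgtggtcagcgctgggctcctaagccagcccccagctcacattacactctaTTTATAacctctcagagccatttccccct
Sox4: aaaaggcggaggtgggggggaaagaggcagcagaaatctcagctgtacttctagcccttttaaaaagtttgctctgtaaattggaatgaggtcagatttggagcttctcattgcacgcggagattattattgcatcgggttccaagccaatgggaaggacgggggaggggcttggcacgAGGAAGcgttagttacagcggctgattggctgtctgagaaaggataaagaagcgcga
Tek: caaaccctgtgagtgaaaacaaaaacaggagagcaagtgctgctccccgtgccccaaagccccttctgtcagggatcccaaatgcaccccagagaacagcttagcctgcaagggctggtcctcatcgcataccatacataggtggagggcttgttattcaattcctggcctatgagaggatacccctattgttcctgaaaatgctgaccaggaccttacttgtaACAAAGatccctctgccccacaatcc
Both strands of the 250 bases before each start site were searched for AGGAAG, a core bound by ETS factors, for ACAATG or ACAAAG, cores bound by SOX factors, for AGATAA, a core bound by GATA factors, and for TATAAA. None of these words overlaps another. Capitals mark AGGAAG in Egfl7 and Sox4, ACAAAG in Tek, and TTTATA, which is TATAAA on the other strand, in Meox2. The Hspa12b window held none of these words. AGGAAG was present in 29.5% of 32851 promoters of the same length, a SOX core in 25.2%, AGATAA in 9.99%, and TATAAA in 12.4%, and no word was present in all 5 windows.

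Egfl7 (ENSMUSG00000026921.18, chromosome 2, 26580014 to 26593120, plus strand of GRCm38) ranked first of the 10 genes in unstored hearts only on a scale that divides by transcript length, summed over its transcripts. By group means, it lost that place after storage. In CPM at 0 h, its means of 80.6 in LV and 86.9 in RV were below those of Cdh5 (186 and 182) and Tie1 (112 and 104). In LV, its level was 54.9, 81.3, and 106 CPM at 0 h, 37.5, 31.1, and 10.8 CPM at 4 h, and 59.5, 30.6, and 14.98 CPM at 8 h, for numbers 1, 2, and 3. In RV, it was 62.9, 79.6, and 118 CPM at 0 h, 33.0, 24, and 8.93 CPM at 4 h, and 29.2, 14.8, and 20.6 CPM at 8 h. All stored libraries lay below those at 0 h except number 1 of LV at 8 h. On the log2 scale, Egfl7 in LV differed from 0 h by -1.60 ± 0.55 (SE) after 4 h and -1.20 ± 0.54 after 8 h, and the RV values were -1.97 ± 0.45 and -2.002 ± 0.45. On the scale of TPM, which also divides by transcript length, Egfl7 held 129 ± 37.5 TPM (SD, n = 3) in LV and 131 ± 29.5 in RV at 0 h, where it ranked first of the 10. After 8 h it held 43.2 ± 29.6 TPM in LV, behind Cdh5, and 24.8 ± 6.96 in RV, behind Cdh5 and Tie1. At 8 h in LV, the SDs of Egfl7 overlapped with those of Cdh5, at 57.2 ± 6.45 TPM, and of the next-ranked Tie1, at 38.3 ± 6.63 TPM. In number 1 of that group, Egfl7 was at 75.2 TPM, above Cdh5 at 64.6 TPM.

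The transcript Egfl7-202 had the largest share of the Egfl7 TPM in every group, between 32.9% of it in LV at 0 h and 41.6% in RV at 8 h (means of 3 libraries). It alone went from 41.9 to 17.1 TPM in LV and from 47.3 to 10.2 TPM in RV between 0 and 8 h, so that the difference did not rest on the minor transcripts. At 0 h it was below the main transcript of Cdh5, at 59.8 TPM in LV and 57.2 TPM in RV. The first rank of Egfl7 at 0 h thus rested on the sum over its transcripts. Mir126a, an endothelial microRNA, lies within the gene at chr2:26591357-26591429 (+), in the intron between exons 7 and 8 of Egfl7-202. Its mature 3p strand is shown with the seed, bases 2 to 8, in capitals, because its host gene was the one lowered from the highest level.
mmu-miR-126a-3p: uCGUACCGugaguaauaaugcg
Small RNA was not quantified in these libraries, and the level of Mir126a was not analysed here.

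Hspa12b (ENSMUSG00000074793.10, chromosome 2, 131127280 to 131146321, plus strand) spread widely between the libraries of a group. In the LV libraries, it was at 22.9, 31.5, and 49.3 CPM at 0 h, 18.8, 19.2, and 3.05 CPM at 4 h, and 29.5, 20.6, and 5.07 CPM at 8 h. In the RV libraries, it was at 26.5, 29.5, and 53.3 CPM at 0 h, 12.9, 12.1, and 2.77 CPM at 4 h, and 11.8, 7.87, and 4.33 CPM at 8 h. The stored RV libraries all lay below those at 0 h, whereas in LV at 8 h the groups overlapped. Log2 fold changes of Hspa12b in LV were -1.33 ± 0.71 after 4 h and -0.90 ± 0.70 after 8 h, with -1.96 ± 0.55 and -2.18 ± 0.55 for RV. Without number 3 of the stored groups, a choice made after the values were seen, the LV changes of Hspa12b were -0.86 and -0.48 and the RV changes -1.52 and -1.90.

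Meox2 (ENSMUSG00000036144.6, chromosome 12, 37108540 to 37179534, plus strand) was lower in every stored library than in every library at 0 h of the same ventricle. LV held 15.9, 23.5, and 21.2 CPM at 0 h, 10.6, 9.001, and 5.22 CPM at 4 h, and 6.48, 6.58, and 7.28 CPM at 8 h. RV held 17.3, 25.6, and 22.8 CPM at 0 h, 9.15, 9.03, and 6.58 CPM at 4 h, and 7.09, 5.91, and 8.71 CPM at 8 h. Meox2 had LV log2 fold changes of -1.28 ± 0.25 after 4 h and -1.57 ± 0.25 after 8 h, close to the RV values of -1.39 ± 0.22 and -1.58 ± 0.22. Its relative Meox1, which belongs to the same homeobox family, rose at 8 h in both ventricles, by a log2 fold change of 1.82 ± 0.35 in LV and 1.74 ± 0.49 in RV (edgeR's quasi-likelihood test, Benjamini-Hochberg adjusted p 0.0319 and 0.0473).

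Sox4 (ENSMUSG00000076431.4, chromosome 13, 28948919 to 28953713, minus strand) was likewise lower in all stored libraries, and it differed between the ventricles before storage. Its LV level was 42.7, 56.5, and 34.6 CPM at 0 h, 21.5, 25.1, and 15.6 CPM at 4 h, and 14.2, 16.1, and 19.0 CPM at 8 h. Its RV level was 103, 92.7, and 51.2 CPM at 0 h, 22.8, 28.4, and 19.5 CPM at 4 h, and 21.5, 18.5, and 23.6 CPM at 8 h. Sox4 differed from 0 h by a log2 fold change of -1.10 ± 0.22 after 4 h and -1.44 ± 0.23 after 8 h for LV, and of -1.79 ± 0.27 and -1.94 ± 0.27 for RV.

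Tek (ENSMUSG00000006386.15, chromosome 4, 94739289 to 94874976, plus strand) showed the smallest difference among the 5 genes that were lower. LV libraries held 47.9, 55.6, and 68.6 CPM at 0 h, 47.9, 46.1, and 24.4 CPM at 4 h, and 52.9, 49.9, and 35.8 CPM at 8 h. RV libraries held 49.1, 59.1, and 77.7 CPM at 0 h, 45.03, 39.99, and 26.6 CPM at 4 h, and 45.2, 36.7, and 40.5 CPM at 8 h. The groups overlapped in LV and were apart in RV. Tek had log2 fold changes of -0.54 ± 0.26 and -0.31 ± 0.26 in LV after 4 and 8 h, beside -0.72 ± 0.23 and -0.59 ± 0.23 for RV.

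Tie1 (ENSMUSG00000033191.14, chromosome 4, 118471191 to 118490061, minus strand) did not share the lower level of its partner Tek. The LV level was 102, 102, and 132 CPM at 0 h, 112, 114, and 94.3 CPM at 4 h, and 165, 130, and 145 CPM at 8 h. The RV level was 94.5, 87.6, and 130 CPM at 0 h, 105, 91.2, and 74.2 CPM at 4 h, and 166, 109, and 184 CPM at 8 h. Log2 fold changes of Tie1 in LV were -0.07 ± 0.15 after 4 h and 0.39 ± 0.15 after 8 h, and those of RV were -0.19 ± 0.25 and 0.57 ± 0.25. Of the 6 listed ligands and partners of the Tie receptors, 5 could be tested. Only Foxo1, a factor that the Tek pathway restrains, passed the test. It rose in RV by 0.65 ± 0.17 at 4 h and 0.81 ± 0.17 at 8 h (edgeR adjusted p 0.0529 and 0.0153). Among all tested genes, 6.17% and 13% were called higher there. In LV at 8 h, 3 of the 5 had an unadjusted p under 0.05, as did 3396 of all 14564 tested genes. Of the ligands of Tek, Angpt2, which endothelial cells store, had log2 fold changes between -0.14 and 0.18, and Angpt1, which mural cells make, had -0.70 ± 0.25 in LV and -0.83 ± 0.36 in RV at 8 h (edgeR adjusted p 0.141 and 0.149).

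Cdh5 (ENSMUSG00000031871.9, chromosome 8, 104101625 to 104144511, plus strand) overlapped with 0 h in every stored group. In LV, Cdh5 was at 165, 175, and 220 CPM at 0 h, 238, 217, and 138 CPM at 4 h, and 230, 201, and 215 CPM at 8 h. In RV, Cdh5 was at 147, 150, and 250 CPM at 0 h, 209, 191, and 139 CPM at 4 h, and 242, 177, and 297 CPM at 8 h. Cdh5 had log2 fold changes of 0.09 ± 0.20 and 0.21 ± 0.20 for LV after 4 and 8 h, beside 0.00 ± 0.28 and 0.41 ± 0.28 for RV. With 53.4 to 60.7 TPM as group means, Cdh5 ranked first of the 10 in all 4 stored groups. None of its 5 listed partners at the adherens junction, such as the catenins, was called in any comparison with 0 h by edgeR. In LV at 8 h, 1 of them had an unadjusted p under 0.05, as did 3396 of all 14564 tested genes.

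None of the SoxF factors was lower in all stored groups. Sox7 (ENSMUSG00000063060.6, chromosome 14, 63943673 to 63950732, plus strand) was at 59.8, 36.7, and 30.6 CPM at 0 h, 60.4, 47.3, and 37.2 CPM at 4 h, and 36.9, 32.3, and 68.9 CPM at 8 h in LV. In RV, Sox7 was at 46.0, 31.4, and 29.3 CPM at 0 h, 73.8, 73.7, and 52.8 CPM at 4 h, and 65.8, 54.5, and 116 CPM at 8 h, so that every stored RV library lay above those at 0 h. Its log2 fold changes were 0.19 ± 0.34 and 0.12 ± 0.34 for LV after 4 and 8 h, beside 0.92 ± 0.31 and 1.17 ± 0.32 for RV. Without number 3 of the stored groups the RV value of Sox7 at 8 h was 0.74.

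Sox17 (ENSMUSG00000025902.13, chromosome 1, 4490931 to 4497354, minus strand) spread widely at 4 h, with 36.8, 15.1, and 8.31 CPM in LV and 41.0, 18.2, and 7.06 CPM in RV. Before storage Sox17 was at 14.6, 13.03, and 13.4 CPM in LV and 13.9, 10.5, and 15.9 CPM in RV, and at 8 h at 21.5, 10.5, and 19.0 CPM and 29.2, 16.7, and 31.9 CPM. Number 1 was the highest and number 3 the lowest at 4 h in both ventricles, on either side of the 0 h libraries. Log2 fold changes of Sox17 were 0.56 ± 0.47 and 0.31 ± 0.47 for LV after 4 and 8 h, and 0.74 ± 0.52 and 0.96 ± 0.52 for RV. Sox18 (ENSMUSG00000046470.5, chromosome 2, 181669836 to 181671640, minus strand) was at 16.7, 24.2, and 25.5 CPM at 0 h, 24.3, 28.4, and 12.6 CPM at 4 h, and 39.5, 25.5, and 19.6 CPM at 8 h in LV. In RV, Sox18 was at 20.7, 21.8, and 33.7 CPM at 0 h, 17.9, 17.2, and 9.56 CPM at 4 h, and 21.8, 12.6, and 29.0 CPM at 8 h. Its libraries were below those at 0 h only in RV at 4 h, where the log2 fold change was -0.75 ± 0.35, against -0.02 ± 0.33 in LV at 4 h, 0.36 ± 0.33 in LV at 8 h, and -0.24 ± 0.34 in RV at 8 h.

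**Figure D1:**
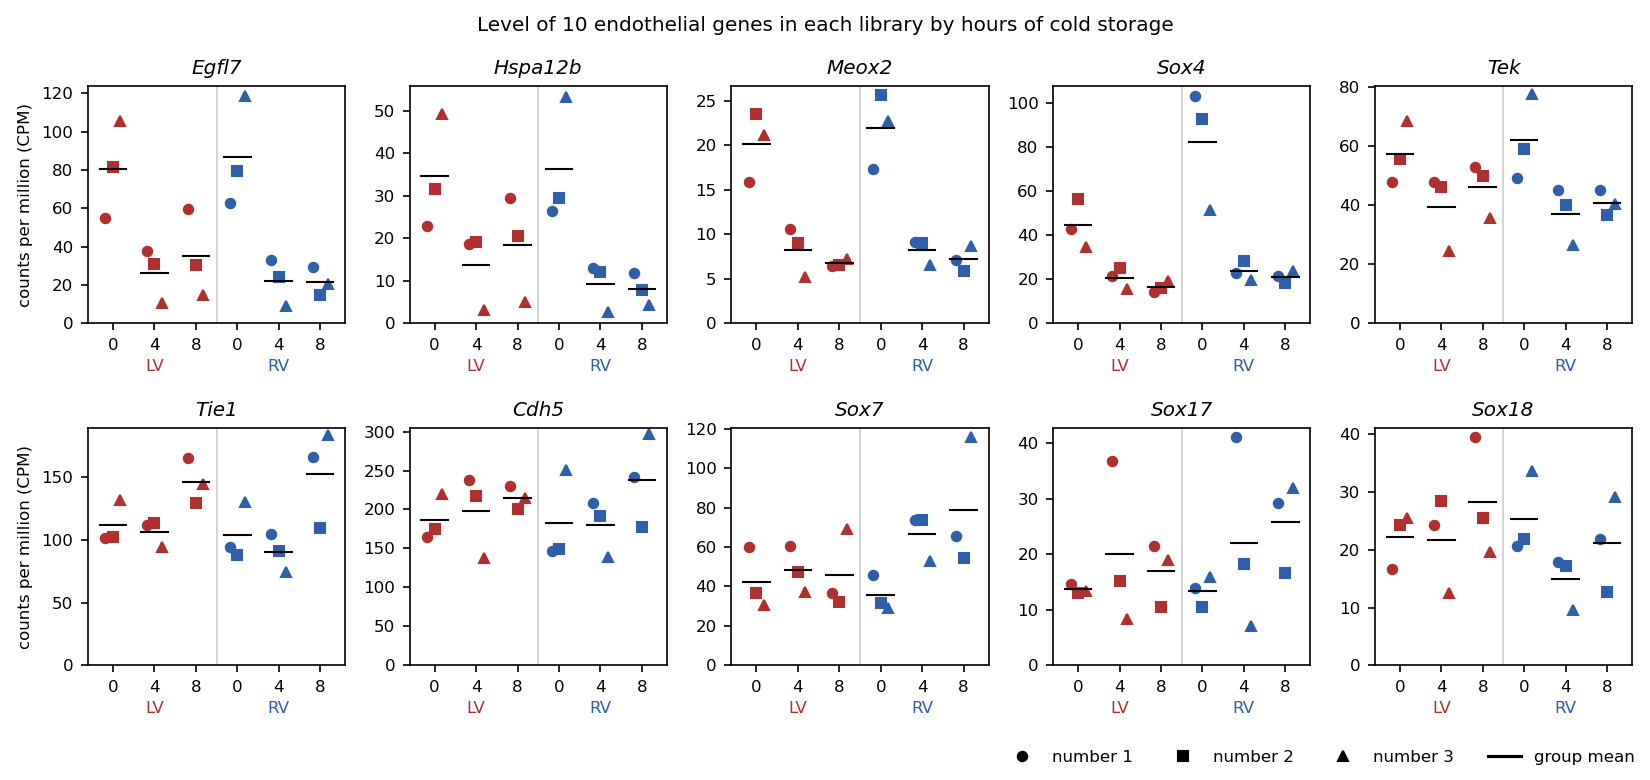
Each panel plots the level of 1 gene in CPM (vertical axis from 0) in the 18 libraries by hours of storage, LV in red and RV in blue, with marker shapes for the library numbers and lines for the means of 3 libraries. Meox2 and Sox4 in all stored libraries, and Egfl7 in all but 1, lie below the 0 h libraries of their ventricle, while Cdh5 overlaps throughout.

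**Figure D2:**
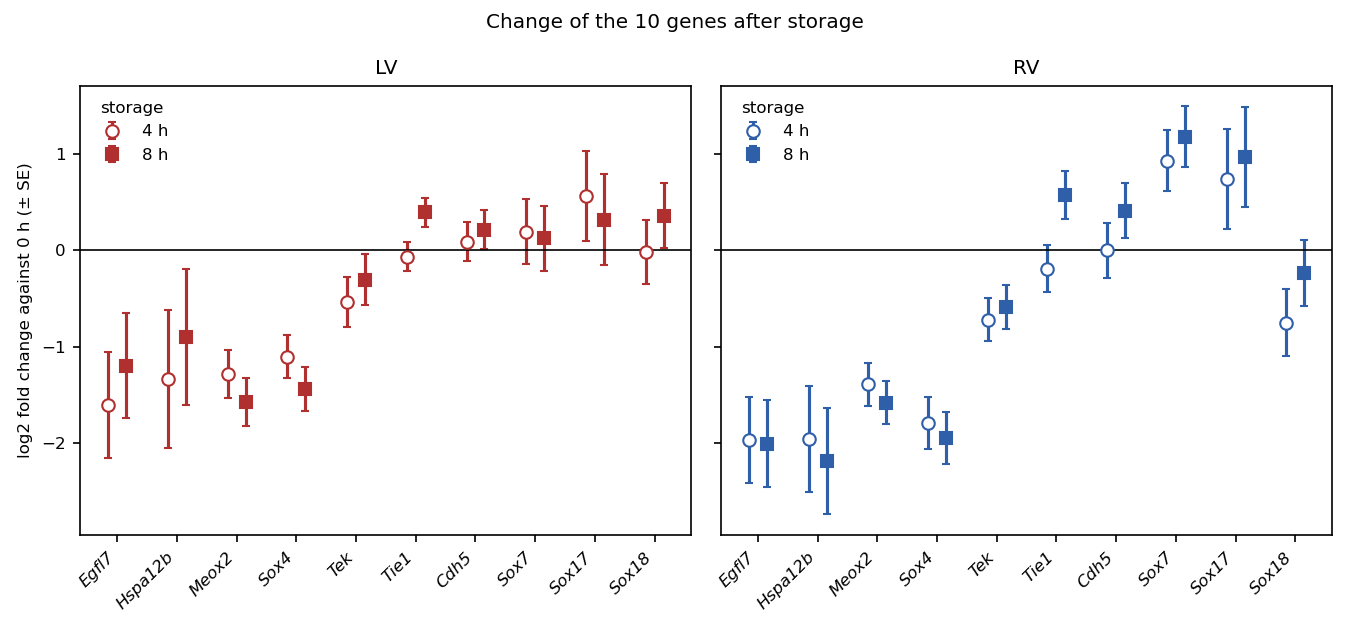
Points are log2 fold changes of the 10 genes against 0 h from edgeR, with bars of 1 SE, at 4 h (open) and 8 h (filled) in LV and RV. The 4 genes on the left lie between -0.90 and -2.18, Tek lies between -0.31 and -0.72, and Sox7 in RV reaches 1.17.

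Counted, as a description, with the rule of an edgeR adjusted p under 0.1 and a fold over 1.5, lower members were Meox2 and Sox4 in LV at 4 and at 8 h, where 0.398% and 1.26% of all tested genes were called lower. In RV they were Egfl7, Hspa12b, Meox2, Sox4, and Tek at 4 h and the same without Tek at 8 h, with 3.91% and 5.26% of all tested genes called lower. Sox7 in RV at 8 h was the only member called higher, with 13% of all tested genes. These counts come from the contrast for which the genes were picked, and nothing is read from them against the shares of all genes. In RV, same-numbered libraries at different storage times deviated together, although the labels do not say what the number stands for. Low Ddx3y did not keep to 1 number, with number 2 low at 0 h and number 3 low at 4 and 8 h. With the number as a block, 5.4% and 8.81% of all genes were called lower in RV at 4 and 8 h. Tek at 4 h was not called in that fit. Single libraries moved these counts, together with those of all genes. Without number 2 or number 3 of LV at 0 h, 0 of the 10 were called lower in LV at 4 h, where calls lower among all genes went from 58 to 1 and 2. Without number 2 or number 3 of RV at 0 h, 2 were called lower in RV at 4 h, where calls among all genes went from 572 to 86 and 79, and Sox7 was not called in RV at 8 h. Without any 1 library of LV at 4 h, 1 was called lower there, and without number 1 or number 2 of RV at 4 h, 3 were. The median log2 fold change of the 10 genes was -0.30 and -0.09 in LV and -0.74 and -0.41 in RV at 4 and 8 h, and that of all tested genes lay between -0.07 and 0.00.

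The other endothelial genes lay on both sides of 0. Of 34 listed genes, 1 rose and 0 fell in LV at 4 h, 3 rose and 0 fell in LV at 8 h, 3 rose and 4 fell in RV at 4 h, and 6 rose and 3 fell in RV at 8 h. Of all tested genes, 2.4% and 5.46% were called higher in LV at 4 and 8 h and 6.17% and 13% in RV, and 0.398%, 1.26%, 3.91%, and 5.26% were called lower in the same order. Log2 fold changes below 0 were those of 23 and 15 of the 34 in LV and 22 and 10 in RV at 4 and 8 h. Unadjusted, 8 and 11 of the 34 had a p under 0.05 in LV at 4 and 8 h, as did 2271 and 3396 of all 14564 tested genes. Of the 15020 genes it tested there, DESeq2 called 219 and 335 lower, among them 3 and 1 of the 34. Their median log2 fold changes were -0.13, 0.15, -0.16, and 0.28 in the same order. The largest falls in RV at 8 h were those of Clec14a, a C-type lectin of endothelium, at -2.39 ± 0.47 (edgeR adjusted p 0.012), Myct1 at -2.11 ± 0.39 (adjusted p 0.01), and Lyl1, a basic helix-loop-helix factor, at -2.10 ± 0.49 (adjusted p 0.0225). Pecam1, the pan-endothelial adhesion molecule CD31, was between 97.7 and 196 CPM in the 18 libraries, with log2 fold changes between -0.21 and 0.22. Vwf, the clotting factor made in endothelium, had log2 fold changes between 0.23 and 0.60 and Kdr, the main VEGF receptor, between -0.61 and -0.89, and neither was called.

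**Figure D3:**
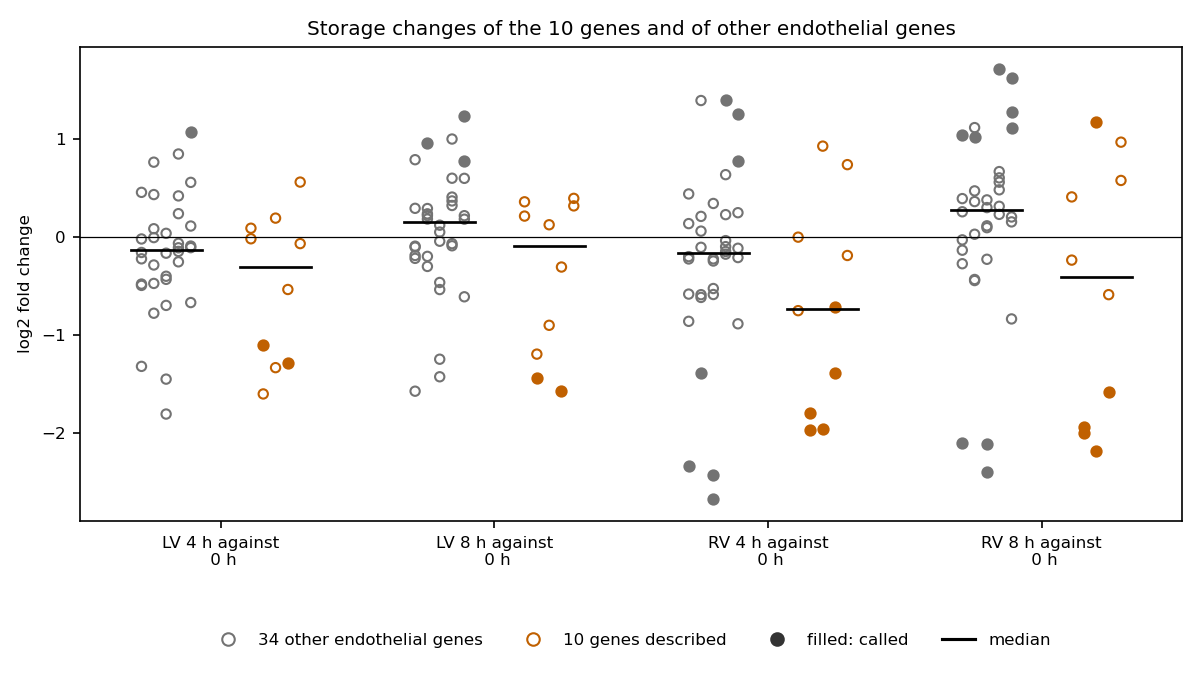
Log2 fold changes against 0 h of 34 other endothelial genes (grey) and the 10 genes described (orange) in 4 comparisons, filled where called by edgeR, with a line at each median. The other endothelial genes lie on both sides of 0, with medians between -0.16 and 0.28, and the called falls in RV reach -2.68, which is Clec14a.

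When the libraries were scaled to these 34 genes in place of all genes, the differences of Egfl7, Hspa12b, Meox2, and Sox4 were as large at 8 h. In RV at 8 h, the log2 fold changes were -2.33 for Egfl7, -2.41 for Hspa12b, -1.96 for Meox2, and -2.35 for Sox4. In LV at 8 h, they were -1.37, -1.05, -1.73, and -1.61 in the same order. This scaling shifted the median of all genes to -0.17 in LV and -0.38 in RV at 8 h. On that scale Cdh5 was between 0.00 and 0.12 and Sox7 in RV at 8 h was 0.73 and not called. Genes of other cell types also differed. The summed level of 10 cardiomyocyte genes was between 66410 and 79110 CPM in LV at 0 h and between 49140 and 60550 CPM at 8 h, and in RV between 67120 and 76590 and between 32680 and 64600 CPM. The 5 neutrophil genes summed to between 1.76 and 3.46 CPM at 0 h and between 10.5 and 20 CPM at 8 h over both ventricles. The 9 macrophage genes summed to between 146 and 296 CPM at 0 h and between 206 and 442 CPM at 8 h, the 8 fibroblast genes to between 847 and 1067 and between 993 and 2052 CPM, and the 10 mural genes to between 1090 and 1262 and between 1161 and 1466 CPM. The 6 lymphatic genes summed to between 90.5 and 107 CPM at 0 h and between 109 and 160 CPM at 8 h, and the 5 lymphocyte genes reached at most 4.05 CPM. The mural sum was carried by Rgs5, a gene of pericytes, at between 449.6 and 998.1 CPM. Of the 10 mural genes, 4 fell and 0 rose in RV at 4 h and 3 fell and 0 rose at 8 h. Among all tested genes, 3.91% and 5.26% were called lower there. At 8 h in RV, Kcnj8, a potassium channel of pericytes, fell by 1.48 on the log2 scale (SE 0.40, edgeR adjusted p 0.0403), Cspg4 (NG2) by 0.74 (SE 0.14, adjusted p 0.0101), and Notch3, the Notch receptor of mural cells, by 0.63 (SE 0.12, adjusted p 0.0111). Pdgfrb, the mural PDGF receptor, fell by 0.70 at 4 h (SE 0.16, adjusted p 0.0349). In LV, 0 of the 10 were called, and 3 and 2 had an unadjusted p under 0.05 at 4 and 8 h, as did 2271 and 3396 of all 14564 tested genes. Mitochondrial genes took between 24 and 28.2% of the counts in LV at 0 h and between 31.9 and 34.3% at 8 h, and in RV between 22.6 and 32.5% and between 33.2 and 34.1%. No gene of these lists was at 0 in all libraries. The part of these shifts in the levels of the 10 genes was not tested.

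Genes of particular vessels also divided. Of all tested genes, 0.398% and 1.26% were called lower and 2.4% and 5.46% higher in LV at 4 and 8 h. In RV, 3.91% and 5.26% were called lower and 6.17% and 13% higher, and the counts of these short lists stand beside those shares. Of the 9 arterial genes, among them targets of Notch, 0 were called in LV at 4 h, 2 fell in LV at 8 h, and 4 fell in RV at each time, where 1 also rose at 8 h. Unadjusted, 6 of the 9 had a p under 0.05 in LV at 4 h, as did 2271 of all 14564 tested genes. Hey1, a Notch target, fell by 1.83 on the log2 scale in RV at 8 h (SE 0.36, edgeR adjusted p 0.0129), and Gja4, an arterial connexin, rose by 1.3 ± 0.45 (adjusted p 0.0859). Of the 4 venous genes, 1 fell in LV at 4 h, 1 rose in LV at 8 h, 3 fell and 1 rose in RV at 4 h, and 1 rose in RV at 8 h. Of the 10 capillary genes, apart from the rise of Meox1 at 8 h, 1 fell in RV at 4 h. Of the 8 tight junction genes, 1 rose in RV at 4 h and 2 at 8 h, among them F11r at 1.102 ± 0.38 (adjusted p 0.0871). Of the 10 genes of the VEGF system, 1 rose in LV at 8 h, 2 rose and 1 fell in RV at 4 h, and 3 rose in RV at 8 h, led by Pgf, a VEGF-family ligand, at 1.94 ± 0.45 (adjusted p 0.0234). The 4 adhesion molecules of activated endothelium were all called higher in RV at both times and 3 of them in LV, with Selp (P-selectin) at 5.75 ± 0.62 and Sele (E-selectin) at 3.59 ± 0.67 in RV at 8 h (adjusted p 0.00133 and 0.01). Of 15 relatives of the 10 genes, 13 were tested, and Sox9 rose by 1.97 ± 0.34 in RV at 8 h (adjusted p 0.00782) while Sox12, a SoxC relative of Sox4, fell by 1.07 on the log2 scale (SE 0.33, adjusted p 0.0663).

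Between 4 and 8 h of storage, a contrast for which the genes were not picked, no gene of the whole table was called in either ventricle (0% of 14564 genes in LV and of 14622 in RV), although 1180 and 961 genes had an unadjusted p under 0.05 and DESeq2 called 63 lower and 8 higher in LV and 14 lower and 29 higher in RV. Of the 10 genes, only Tie1 had an unadjusted p under 0.05. Tie1 was higher at 8 than at 4 h by 0.46 ± 0.15 in LV and 0.76 ± 0.25 in RV (log2, edgeR adjusted p 0.551 and 0.599), and in all 6 libraries at 8 h its level was at or above 109 CPM, while in the 6 libraries at 4 h it was at most 114 CPM. For Meox2 and Sox4, the difference of 8 h from 4 h was -0.29 ± 0.25 and -0.33 ± 0.22 in LV and -0.19 ± 0.22 and -0.15 ± 0.26 in RV (edgeR adjusted p between 0.685 and 0.804). Egfl7 differed by 0.41 ± 0.54 in LV and by -0.03 ± 0.43 in RV. Hspa12b differed by 0.43 ± 0.71 in LV and by -0.23 ± 0.54 in RV.

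The comparison of LV with RV at each time was likewise not the contrast for which the genes were picked, although the libraries are the same. Without regard to the library numbers, edgeR called none of the 10 genes at 0, 4, or 8 h, with 0.159%, 0.0133%, and 0.0331% of all 15093 genes called. Unadjusted p-values under 0.05 were those of Sox4 at 0 h and Sox7 at 8 h, where 484 and 1669 of all genes had one. DESeq2 called none of the 10 either. LV and RV libraries of the same time and number deviated together from their group means in all 9 pairs, with a Pearson correlation across genes between 0.559 and 0.844, and the study took both ventricles from a heart. With such pairs as a block, 1.85%, 1.93%, and 8.78% of all genes were called at 0, 4, and 8 h, and of the 10 genes 1, 0, and 3.

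Sox4 was lower in LV than in RV at 0 h in 3 of 3 pairs, with log2 ratios of -1.28, -0.71, and -0.56 and a fitted difference of -0.86 ± 0.12 (edgeR with the block, adjusted p 0.00402). At 8 h, Hspa12b was higher in LV in 3 of 3 pairs, at log2 ratios of 1.32, 1.39, and 0.23 and a fitted difference of 1.09 ± 0.17 (adjusted p 0.00147). The SE and p of a fitted difference here rest on a spread estimated over all pairs and moderated across genes. They do not measure the spread of the 3 ratios shown, which was wide for Hspa12b. Sox7 was lower in LV in 3 of 3 pairs at 8 h, at -0.83, -0.75, and -0.75, with a fitted difference of -0.78 ± 0.08 (adjusted p 2.91e-04). Sox17 was lower in LV at -0.44, -0.66, and -0.75, with a fitted difference of -0.61 ± 0.11 (adjusted p 0.0036). At 4 h, Sox7 was lower in LV in 3 of 3 pairs by less than the fold required, with a difference of -0.48 ± 0.08 (adjusted p 0.0162). Egfl7 at 8 h was higher in LV by log2 ratios of 1.03 and 1.05 in numbers 1 and 2 and lower by -0.46 in number 3. Its fitted difference of 0.58 ± 0.22 missed the required fold (adjusted p 0.0771). With each pair left out in turn, a choice made after the values were seen, the Egfl7 difference ran from 0.32 to 1.04. It was called in 4 of 9 such fits (edgeR adjusted p between 1.48e-05 and 0.443). The value of 1.04 came without the pair of number 3 at 8 h, the 1 pair that went the other way.

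**Figure D4:**
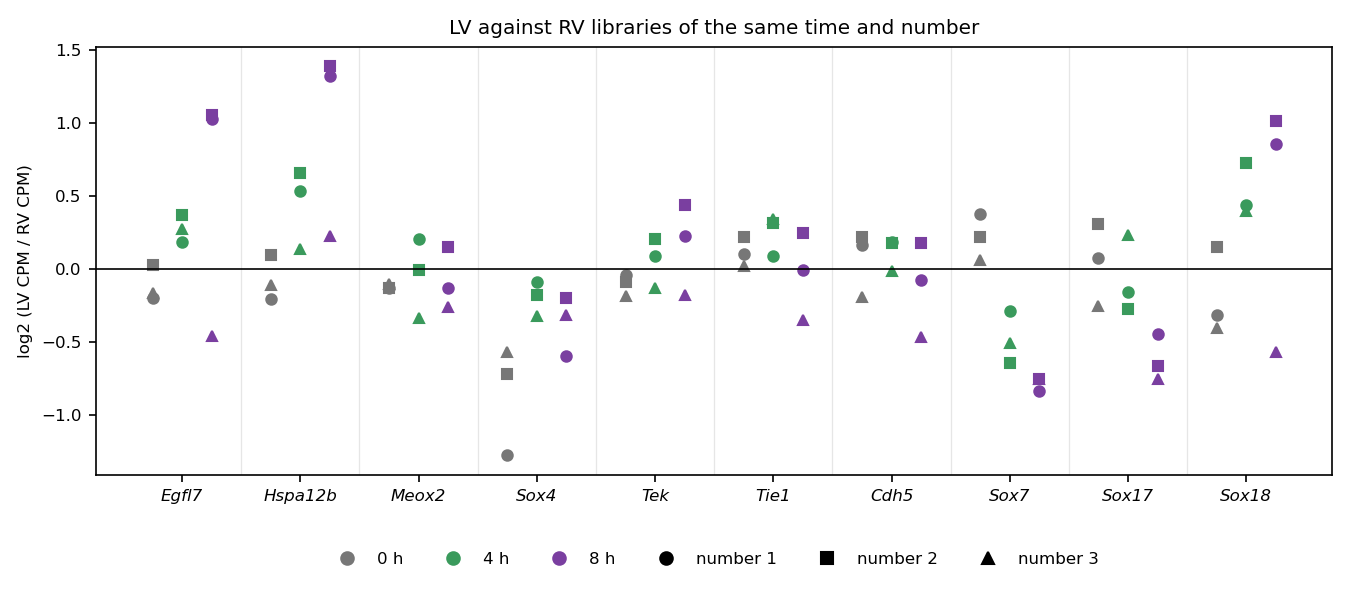
The vertical axis is the log2 ratio of LV CPM to RV CPM for libraries of the same time (colour) and number (shape), for each of the 10 genes. Sox4 lies below 0 in all pairs at 0 h (-0.56 to -1.28), and at 8 h Hspa12b lies above 0 (0.23 to 1.39) and Sox7 and Sox17 below it.

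The change over storage, for which the genes were picked in the same libraries, was then compared between the ventricles. Without the block, edgeR called none of the 10 genes, and none of all genes, for a difference in the change to 4 or 8 h (0% of 15093). At an unadjusted p under 0.05 stood 158 and 628 genes, and DESeq2 called 0 and 2. With the block, 0.305% and 5.71% of all genes were called. Of the 10 genes, Sox7 differed at 4 h, with the LV change below the RV change by a log2 difference of -0.70 ± 0.11 (edgeR adjusted p 0.0632). At 8 h the log2 difference, LV change minus RV change, was -1.01 ± 0.12 for Sox7 (adjusted p 0.00131), -0.65 ± 0.16 for Sox17 (adjusted p 0.036), and 1.17 ± 0.22 for Hspa12b (adjusted p 0.0105). When each pair was left out in turn, a choice made after the values were seen, Sox7 and Hspa12b at 8 h were called in 9 of 9 fits, Sox17 in 6 of 9, and Sox7 at 4 h in 5 of 9. For Egfl7 the fitted difference in the change to 8 h ran from 0.42 to 1.15 over these fits and was called in 1.

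Within the groups, Sox4 varied apart from most of the other genes that were lower. Over the deviations of log2 CPM from the group means in 18 libraries, which share depth and pairs of ventricles, the Pearson correlation of Egfl7 was 0.93 with Hspa12b, 0.95 with Tek, and 0.89 with Sox18, but 0.01 with Sox4. Meox2 had a correlation of 0.63 with Egfl7, 0.72 with Tek, 0.50 with Hspa12b, and 0.39 with Sox4. Tie1 and Cdh5 had a correlation of 0.91. Number 3 was the lowest library for all 10 genes at 4 h in LV and in RV. At 8 h, number 3 was the lowest for 4 of 10 in LV and 1 of 10 in RV, where number 2 was the lowest for 9. The summed other endothelial genes were also lowest in number 3 at 4 h, at 1686 CPM in LV and 1856 CPM in RV. These are libraries with low Ddx3y. At 0 h, low Ddx3y was in number 2, which was the lowest library only for Sox17 in LV and for Tie1 and Sox17 in RV. The part of sex in the spread was not tested. Kdr and Clec14a, which are not among the 10, were low in number 3 at 4 h in both ventricles and at 8 h in LV. Kdr was at 52.5 and 59.8 CPM in number 3 of LV at 4 and 8 h against 126 to 183 CPM in the other stored LV libraries. In RV, Kdr in number 3 was at 45.1 CPM at 4 h against 125 and 116 CPM in numbers 1 and 2. At 8 h in RV, Kdr in number 3 was at 73.5 CPM, close to number 2 at 82.2 CPM, against 143 CPM in number 1.

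**Figure D5:**
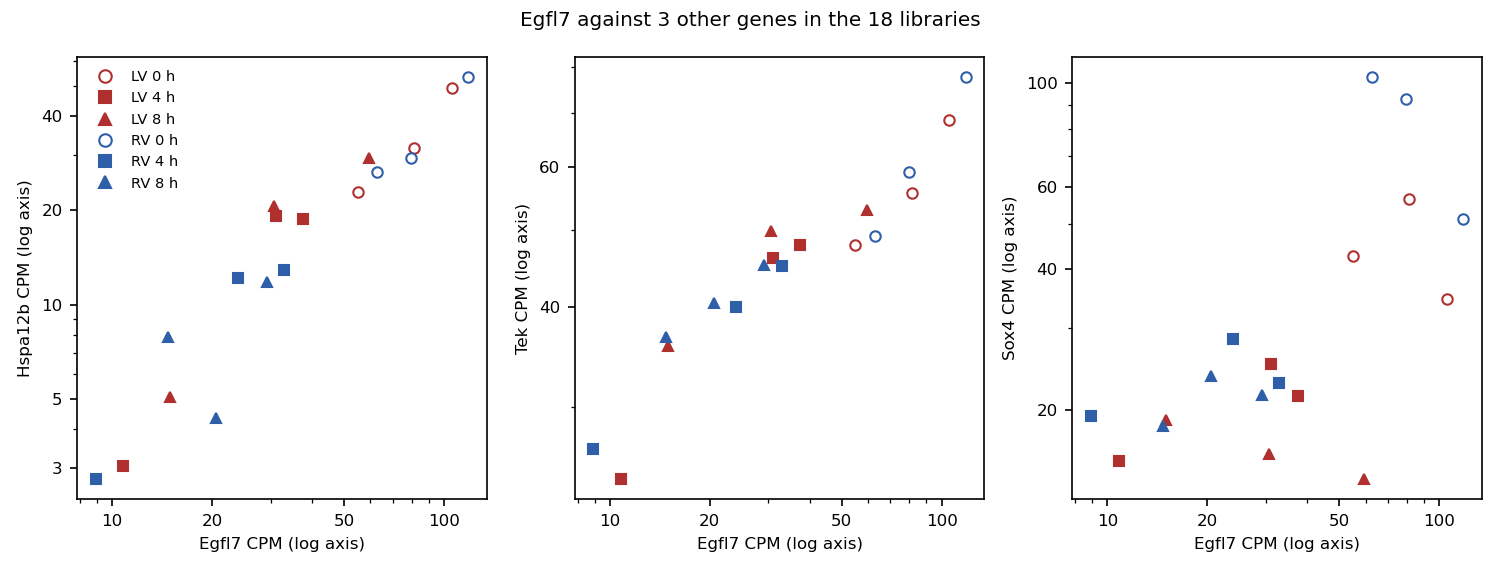
Levels in CPM on log axes of Hspa12b, Tek, and Sox4 against Egfl7 in the 18 libraries, LV in red and RV in blue, with open circles for 0 h, squares for 4 h, and triangles for 8 h. Hspa12b and Tek follow Egfl7 within groups (correlations of deviations 0.93 and 0.95), whereas Sox4 separates 0 h from stored libraries without following Egfl7 within them (0.01).

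The genes whose pattern over the 18 libraries was most like the mean standardised level of the 10 genes were Stx3, Fmnl3, Stk10, Notch4, Tmcc3, Pcdh1, Pear1, Ggta1, Mertk, and Ddah2, with Pearson correlations between 0.907 and 0.938 among 10575 genes compared. The 10 genes themselves were not all close to that mean. Tek was closest, at 0.89, Egfl7 was at 0.82, and Sox7 was at -0.05.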

How the data were processed

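For each of the 18 libraries the authors deposited transcript-level estimated counts, made with Kallisto by pseudoalignment to mouse transcripts and not normalized between libraries, and TPM values scaled within each library. The labels and the text of the study differ in the strain name, the age of the mice, and the volume of HTK, and the labels were used. The counts of 110203 of 111462 transcripts were summed to genes of GENCODE M21 (GRCm38) and rounded, and 1259 had no match. A read that fits several genes or transcripts had been divided by the authors' tool, so that counts are not independent molecules, and genes with few counts are measured less precisely. Mitochondrial genes took 22.6 to 34.3% of the counts.

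After filterByExpr, all remaining genes were tested by quasi-likelihood in edgeR 4.0.16 (TMM, R 4.3.3), with the 9 libraries of a ventricle for storage times and all 18 for ventricles. A gene was called at an adjusted p (Benjamini-Hochberg) under 0.1 with a fold over 1.5. SEs are the log2 fold change divided by the root of the F statistic. They rest on a spread estimated over all libraries of a fit and moderated across genes, not on the libraries compared alone. TPM served for the order of the genes only. Same-numbered libraries of LV and RV were paired by number and time, as described with the results. Across storage times, every same-number pair of RV correlated above 0.1 (lowest 0.155), and not every pair of LV did (lowest -0.0415). By that rule alone, the number was taken to pair the libraries of RV only. The same-number pairs of LV still had a mean correlation of 0.249, against -0.117 for unlike numbers, beside 0.34 and -0.162 in RV. The fits were tested on simulated counts with known changes. Alternatives were DESeq2 1.42.0, RLE size factors, scaling to other endothelial genes, no filter, mitochondrial genes left out, length offsets, an adjusted p under 0.05, the replicate block, other sets of libraries, and each library left out.

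The 10 genes and all gene lists were chosen with earlier results of these data known. Named genes were the 10 genes, Pecam1, Kdr, and Vwf, genes of each list among the 4 with the largest mean change at 8 h of those called, and the 10 genes most alike. The result of 1 other gene of these lists is not reported here. Angpt1, Angpt2, Rgs5, and the single values of Ddx3y, an added check, fall outside this rule and were chosen after the values were seen. Python 3.11.15 with pandas 2.3.3 was used for summing.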

Additional observations from a re-analysis of the deposited data

Results flagged for a closer look

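The change over storage of 3 of the 10 genes differed between LV and RV in the fit with the pair of ventricles as a block, by a test of the difference itself. For Sox7, the LV change minus the RV change was -0.70 on the log2 scale at 4 h and -1.01 at 8 h. It was -0.65 for Sox17 and 1.17 for Hspa12b at 8 h. In that fit, 0.305% and 5.71% of all 15093 genes were called for the change to 4 and 8 h. With each pair left out in turn, Sox7 and Hspa12b at 8 h were called in 9 of 9 fits. Sox17 was called in 6 of 9, and Sox7 at 4 h in 5 of 9. None of the 3 was called without the block.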

How the results depend on the processing

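The log2 fold changes of Egfl7, Hspa12b, Meox2, and Sox4 were below 0 under every alternative run, although that of Hspa12b in LV at 8 h went from -0.90 to -0.47 without number 3 of LV at 8 h, and Meox2 and Sox4 in LV at 4 h were not called without number 2 or number 3 of LV at 0 h. Depth limits mainly Hspa12b, with as few as 80 estimated counts. With DESeq2, 3 other endothelial genes fell in LV at 4 h, and 1 fell and 7 rose in LV at 8 h. Of 15020 genes, it called 219 lower in LV at 4 h and 335 lower and 1161 higher at 8 h. In RV at 4 h, 1 of the 10 genes rose, with 1205 of 15049 genes called higher. With RLE size factors, without mitochondrial genes, with length offsets, or at an adjusted p under 0.05, 0 other endothelial genes rose in LV at 4 h. Of all genes, 280, 291, 275, and 163 were called higher there in the same order, against 349 in the main fit. At an adjusted p under 0.05, 1 of the 10 fell in LV at 4 h and 3 in RV at 4 h, with 15 and 252 of all genes. Scaled to the other endothelial genes, 1 of these fell in LV at each time, and 0 rose in LV at 8 h and 3 in RV at 8 h. On that scale 0 of the 10 rose in RV at 8 h. Of all genes, 45 and 110 were then called lower in LV at 4 and 8 h. Called higher at 8 h were 440 in LV and 857 in RV. With no filter on low counts, 1 other endothelial gene fell in LV at 4 h and 1 of the 10 rose in RV at 4 h. Of all genes, 68 of 22845 fell and 985 of 22849 rose in these comparisons. Without number 3 of the stored groups, a setting chosen after seeing the data, 2 and 5 other endothelial genes rose at 4 h in LV and RV. In RV at 4 h, 2 of the 10 rose. Of all genes, 660 of 14674 in LV and 1189 of 14685 in RV were called higher at 4 h in these fits. With the number as a replicate block in LV, 5 other endothelial genes rose at 8 h, as did 1179 of all 14564 genes. Not every same-number pair correlated above 0.1 there, and no call among the 10 changed. With the pair of ventricles as a replicate block, 1 of the 10 differed between ventricles at 0 h, 3 at 8 h, 1 in the change to 4 h, and 3 in the change to 8 h. Of all genes, 1.85%, 8.78%, 0.305%, and 5.71% were called in the same order. With single libraries left out, the members called lower ran from 0 to 2 in LV at 4 h, from 2 to 5 in RV at 4 h, and from 3 to 5 in RV at 8 h. Calls lower among all genes ran from 1 to 166, from 79 to 847, and from 238 to 2018 in the same order. Members called higher ran from 0 to 1 in RV at 4 h and from 0 to 2 at 8 h, with 235 to 1219 and 1025 to 2625 of all genes. The other endothelial genes called higher ran from 0 to 1 in LV at 4 h, 0 to 3 in RV at 4 h, and 3 to 8 in RV at 8 h. For LV at 8 h they ran from 0 without number 2 of LV at 0 h to 7 without number 2 of LV at 8 h. In those fits, 130 and 1422 of all genes were called higher. Other endothelial genes called lower ran from 0 to 2 in LV at 4 h and from 2 to 4 in RV at 4 h. Members called between ventricles stayed at 0 with single libraries left out. With the block and a pair left out, they were 1 at 0 h, 2 to 4 at 8 h, and 2 to 4 for the change to 8 h. For the change to 4 h they were 0 to 4, where 4 needed the pair of number 3 at 8 h left out. Calls among all genes moved too. Without that pair, 137 were lower and 59 higher for the change to 4 h, against 40 and 6 with all pairs. For the change to 8 h they were 846 and 298, against 712 and 150. Between ventricles at 8 h they were 1096 and 468, against 986 and 339. Log2 fold changes near 0 changed sign, each without a call. In LV at 4 h, Tie1 became 0.0026 and Sox18 0.0015 scaled to the other endothelial genes, and 0.012 and 0.26 without number 3 of the stored groups. Sox7 in LV at 8 h became -0.063 with that scaling and -0.31 without number 3. Cdh5 in RV at 4 h became 0.015 with DESeq2, 0.013 with RLE size factors, 0.032 with length offsets, 0.053 with the replicate block, and 0.15 without number 3. With a library left out, LV at 4 h ran from -0.14 to 0.064 for Tie1, -0.069 to 0.29 for Cdh5, -0.0038 to 0.52 for Sox7, -0.22 to 0.92 for Sox17, and -0.26 to 0.25 for Sox18, and Sox7 in LV at 8 h from -0.30 to 0.45. In RV, Cdh5 at 4 h ran from -0.13 to 0.29, Sox17 at 4 h from -0.076 to 1.16, and Sox18 at 8 h from -0.55 to 0.024. The causes were not tested.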
